A study of Mus musculus with 2 samples.

Results

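The 9 genes described here carry bile acids and vitamin B12 across the ileal enterocyte or report on that traffic. They are the bile acid transport genes Slc10a2, Fabp6, Slc51a and Slc51b, the bile acid sensing genes Nr1h4, Nr0b2 and Fgf15, and the B12 receptor genes Cubn and Amn. Each was taken by its symbol from the gene column of a table of 12631 rows, and 8 of the 9 had a row. Fgf15, the hormone that the ileum sends to the liver, had no row in that table and was not analysed here. Small intestinal epithelium was profiled by RNA sequencing in 1 Myh9-/- mouse and 1 wild type control mouse, both C57BL/6 and 8 weeks old. Both animals received tamoxifen daily for 5 days, and RNA was taken at day 5. Myh9 encodes a motor of the actin cytoskeleton, the non-muscle myosin IIA heavy chain, and the series is titled for its part in epithelial homeostasis, necroptosis and colitis-associated adenoma. The promoter that drives the recombinase, the deleted exons and the intestinal segment from which the cells came are not stated in the labels.

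Conjugated bile acids enter ileal enterocytes through the sodium-dependent transporter Slc10a2 at the brush border, are bound in the cytosol by Fabp6, and leave through the basolateral exporter formed by Slc51a and Slc51b. Inside the cell they activate the nuclear receptor FXR, encoded by Nr1h4. FXR in turn induces Fabp6, both Slc51 genes, Fgf15 and Nr0b2, and in mice Nr0b2 represses Slc10a2. Vitamin B12 bound to intrinsic factor is taken up in the same region by cubam, the complex of the ligand-binding protein cubilin (Cubn) and its membrane anchor amnionless (Amn).

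The start regions of 5 of these genes are shown because the results turn on them: Fabp6 and Slc10a2 had the largest log2 folds on level plus 1 (an order that changes with the pseudocount), Slc51b and Slc51a encode partners whose levels went opposite ways, and Cubn had the lowest log2 fold. Each run is 300 bases of RefSeq sequence on GRCm38.p6, from 250 bases before the annotated start, 5′ to 3′ on the gene's strand. Capitals mark matches, on either strand, to GGTNANTNACC or TGATAA, and positions count back from the base before the start, which is -1.
Fabp6, chr11:43601513-43601812, strand -: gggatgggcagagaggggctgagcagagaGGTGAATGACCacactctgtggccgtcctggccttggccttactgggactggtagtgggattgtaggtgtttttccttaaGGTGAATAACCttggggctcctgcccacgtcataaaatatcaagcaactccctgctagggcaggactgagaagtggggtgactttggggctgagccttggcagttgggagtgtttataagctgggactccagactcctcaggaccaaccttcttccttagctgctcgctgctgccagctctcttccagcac
Slc51b, chr9:65422724-65423023, strand -: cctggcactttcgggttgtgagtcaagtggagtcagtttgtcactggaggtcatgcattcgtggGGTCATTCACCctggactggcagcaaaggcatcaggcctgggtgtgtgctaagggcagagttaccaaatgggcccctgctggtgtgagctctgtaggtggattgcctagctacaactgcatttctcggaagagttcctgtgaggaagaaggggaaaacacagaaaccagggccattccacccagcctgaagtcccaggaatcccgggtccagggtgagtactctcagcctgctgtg
Slc51a, chr16:32487830-32488129, strand -: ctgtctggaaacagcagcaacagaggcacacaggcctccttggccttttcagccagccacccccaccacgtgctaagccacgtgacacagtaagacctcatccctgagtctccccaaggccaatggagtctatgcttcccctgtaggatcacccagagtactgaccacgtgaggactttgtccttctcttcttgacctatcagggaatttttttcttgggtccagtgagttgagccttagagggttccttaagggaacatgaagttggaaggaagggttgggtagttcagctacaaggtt
Slc10a2, chr8:5105238-5105537, strand -: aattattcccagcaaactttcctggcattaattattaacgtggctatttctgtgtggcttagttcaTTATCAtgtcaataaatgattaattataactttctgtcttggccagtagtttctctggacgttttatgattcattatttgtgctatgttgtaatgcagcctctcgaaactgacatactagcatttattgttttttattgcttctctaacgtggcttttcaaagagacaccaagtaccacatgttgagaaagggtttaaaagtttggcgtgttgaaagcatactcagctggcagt
Cubn, chr2:13491827-13492126, strand -: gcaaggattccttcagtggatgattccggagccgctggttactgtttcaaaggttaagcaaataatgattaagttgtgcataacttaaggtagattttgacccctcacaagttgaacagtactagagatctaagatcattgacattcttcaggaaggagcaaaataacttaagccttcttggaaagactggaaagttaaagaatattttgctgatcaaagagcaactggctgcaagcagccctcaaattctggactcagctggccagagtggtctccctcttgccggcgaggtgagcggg
The first pattern is a relaxed form of the inverted repeat that FXR binds with RXR, and it was written down after the Fabp6 promoter had been read. It occurred at 2 places in Fabp6, as GGTGAATGACC from base -221 and as GGTGAATAACC from base -141, and at 1 place in Slc51b, as GGTCATTCACC from base -186. The Slc51b position is counted from a RefSeq start that lies 182 bases inside the GENCODE gene, so this match lies across the GENCODE start. Of 32851 promoters of this length, 86 held the relaxed form, or 0.262%. The stricter form GGTCANTGACC occurred in 0.0396% of promoters and in none of the 8 promoters available for these genes, and every match to it is also a match to the relaxed form. The GATA pattern TGATAA (9.05% of promoters) occurred in Slc10a2 from base -184, and AGATAA (11.2%) occurred in Nr1h4 from base -131, counted from a RefSeq start that lies 26927 bases inside the GENCODE gene. The HNF4 pattern CAAAGTCCA (0.475%) had no match in the member promoters, and the Cubn, Amn, Slc51a and Nr0b2 promoters had no match to any of the 5 patterns. A match describes letters in this window and no binding was measured.

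Levels below are the deposited values minus the 1 that the authors had added. Their unit is not stated, nor whether they are per length, so no gene is said to be more or less abundant than another. A fold is that of level plus 1 in the knockout over the control, and genes past 1.4-fold, the size that the labels state, were called. Each group held 1 sample, so no value has a replicate error, no test was possible, and every difference is between these 2 libraries. In whole-epithelium RNA, fewer cells of a type and less RNA per cell cannot be told apart. Read depth is unknown. The targeted gene checked the labels: Myh9 was 13.6 in the knockout and 99.5 in the control, a log2 fold of -2.78. All 13 epithelial markers had levels above 50 in both libraries. Of these, 2 were higher, 1 was lower and 10 were within 1.4-fold. Krt18 was 488 in the knockout and 250 in the control, Krt20 was 615 and 435, and Cdx2 was 53.8 and 82.9, in that order. Epcam, an adhesion protein of all gut epithelium, lay within 1.4-fold, at 633 in the knockout and 680 in the control.

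Of the 8 genes with a row, 4 were higher in the knockout (Fabp6, Slc10a2, Nr0b2, Slc51b), 3 were lower (Cubn, Amn, Slc51a) and 1 lay between (Nr1h4). Of the 12152 genes that reached a level of 1 in at least 1 library, 32.3% passed 1.4-fold, 15.9% upward and 16.3% downward. All 8 passed that minimum. Slc10a2 and Nr0b2 passed it only through the knockout, which fixed their direction. The other 6 had at least 1 in both libraries: 2 were higher, 3 were lower and 1 lay between, beside 28.3% of such genes past 1.4-fold in either direction. Among those 6, Fabp6 and Slc51b were higher. Both B12 receptor genes and the bile acid gene Slc51a were lower, and Nr1h4 lay between.

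**Figure D1:**
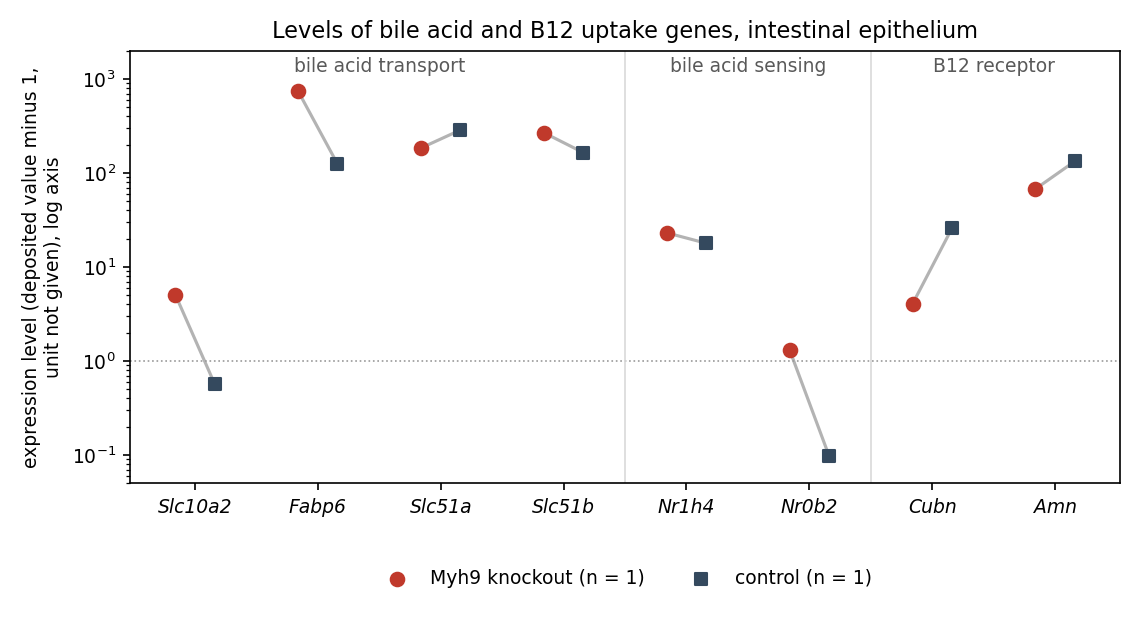
Expression level of each gene in the Myh9 knockout (circles) and the control (squares) on a log axis, 1 sample each, with a dotted line at a level of 1 and grey lines joining the samples of a gene. Fabp6 stood at 741 in the knockout and 125 in the control, Cubn at 4.05 in the knockout and 25.7 in the control, and Slc10a2 and Nr0b2 lay below 1 in the control only.

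The cytosolic bile acid binding protein gene Fabp6 had the largest log2 fold of the set on level plus 1, although with no pseudocount those of Slc10a2 (3.16) and Nr0b2 (3.73) were larger. Its level was 741 in the knockout and 125 in the control, 5.89-fold higher, a log2 fold of 2.56. Only 58 of the 12152 included genes, or 0.477%, had a higher log2 fold. On mm10 the gene (ENSMUSG00000020405.4, minus strand) spans chromosome 11 from 43596049 to 43601540, and no other annotated gene overlaps it.

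Slc10a2, the apical uptake transporter, was below the minimum level of 1 in the control and above it in the knockout. It stood at 5.09 in the knockout and 0.572 in the control, 3.88-fold higher on level plus 1, a log2 fold of 1.96. The ratio of the bare levels was 8.91, because the added 1 weighs on a control level below 1. It spans chromosome 8 from 5083219 to 5105351 (ENSMUSG00000023073.2, minus strand).

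The subunit genes of the basolateral exporter went opposite ways. Slc51b, the small ancillary subunit, was 268 in the knockout and 165 in the control, 1.62-fold higher, a log2 fold of 0.70. Slc51a, the larger transmembrane subunit, was 185 in the knockout and 287 in the control, 1.55-fold lower, a log2 fold of -0.63. The log2 folds of the partners thus lay 1.33 apart, each not far past the 1.4-fold line, which is 0.49 on the log2 scale. The Slc51b promoter printed above holds the relaxed inverted repeat and that of Slc51a does not. Any part of this pattern in the levels of the 2 genes was not tested, and FXR is known to induce both. Slc51a lies on chromosome 16 from 32474504 to 32487879, and its end overlaps Pcyt1a on the opposite strand, which was 53.4 in the knockout and 46.8 in the control. Slc51b lies on chromosome 9 from 65412714 to 65422955 and overlaps Rasl12 on the opposite strand, at 1.11 in the knockout and 0.556 in the control. The strand setting of the counting is not given, so reads in the shared stretches could not be told apart.

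Nr1h4, the gene for FXR itself, was 23.1 in the knockout and 17.9 in the control, 1.27-fold higher and inside the 1.4-fold lines, a log2 fold of 0.35. Its log2 fold was 2.21 below that of Fabp6. Nr0b2, which encodes the repressor SHP, was 1.31 in the knockout and 0.0982 in the control, 2.10-fold higher on level plus 1, a log2 fold of 1.07. Both Nr0b2 levels are near the lowest the table lists, where the smallest larger level of any row was 0.794. Nr1h4 lies on chromosome 10 from 89454234 to 89533585 and Nr0b2 on chromosome 4 from 133553376 to 133556536. The log2 fold of the receptor gene thus lay below those of Fabp6 and Slc51b, which FXR is known to induce, and above that of Slc51a, which FXR also induces. Nr0b2, a further gene induced by FXR, is left out of this comparison. It passed the minimum level only through the knockout, which fixed its direction.

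Both cubam genes were lower. Cubn, which binds the intrinsic factor and B12 complex, was 4.05 in the knockout and 25.7 in the control, 5.29-fold lower, a log2 fold of -2.40. Only 26 of the included genes, or 0.214%, had a lower log2 fold. Amn, which anchors cubilin in the membrane and carries it to the apical surface, was 67.7 in the knockout and 133 in the control, 1.95-fold lower, a log2 fold of -0.97, with 4.67% of included genes lower still. The log2 fold of Cubn was 1.44 below that of its partner. Cubn lies on chromosome 2 from 13276338 to 13491813 and Amn on chromosome 12 from 111271095 to 111276426, and the 9 genes lie on 9 different chromosomes. The noncoding transcript Gm13270 overlaps Cubn on the opposite strand and had no row in the table.

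**Figure D2:**
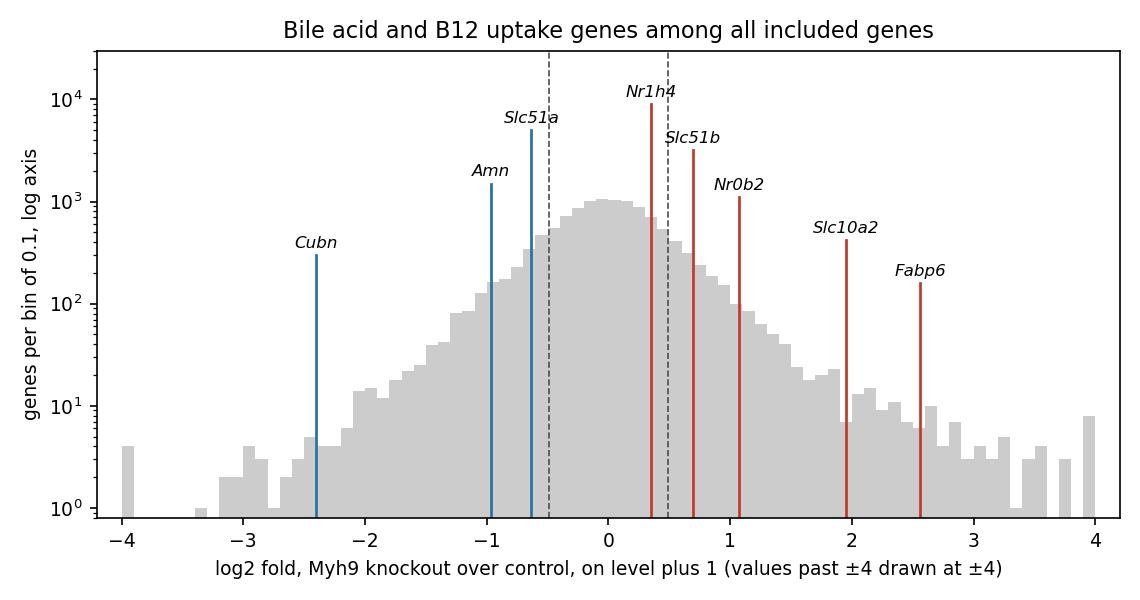
Number of included genes by log2 fold of the Myh9 knockout over the control, in bins of 0.1 on a log axis, with lines for the bile acid and B12 uptake genes and dashed lines at 1.4-fold in each direction. Fabp6 at 2.56 and Cubn at -2.40 lie in opposite tails and Nr1h4 at 0.35 lies inside the dashed lines.

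The median log2 fold was 0.52 over the 8 genes but -0.14 over the 6 with at least 1 in both libraries, beside -0.0037 for all included genes, whose central 90% ran from -0.94 to 0.96. Fabp6, Slc10a2, Nr0b2, Amn and Cubn lay outside that central range, while both Slc51 genes and Nr1h4 lay inside it. Over the 2 samples, the genes whose deposited values lay nearest to those of Fabp6, whatever their unit, were S100a11 (652 in the knockout and 144 in the control), S100a6 (611 and 89.3, in that order) and Igkc (494 and 167). For Cubn they were Mettl7b (4.94 in the knockout and 25.8 in the control), Hdac11 (4.96 and 20.7) and Ugt2a3 (5.61 and 33.1). The measure was the Euclidean distance in log2 of level plus 1, which ran from 0.23 to 0.72 for these genes, and 2 samples cannot separate a shared pattern from a shared fold.

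Other genes that move or sense bile acids went both ways. Of 13 included pumps, enzymes and receptors, 2 were higher, 5 were lower and 6 were within 1.4-fold, which became 4 higher and 4 lower when the knockout was scaled to the epithelial markers. Their median log2 fold was -0.41. The higher ones were Abcc4, a basolateral efflux pump, at 3.35 in the knockout and 0.732 in the control, and Fgfr4, the receptor for the Fgf15 hormone, at 5.08 in the knockout and 1.74 in the control. Abcc4 was below 1 in the control and so entered only through the knockout. The 3 lowest were the organic anion uptake transporter Slco2b1 (7.81 in the knockout and 29.3 in the control), Malrd1 (9.71 and 20.1, in that order), which in mice governs Fgf15 output, and the bile acid hydroxylase Cyp3a11 (34.7 and 59.0). The conjugate pumps Abcc2 (61.5 in the knockout and 55.4 in the control) and Abcc3 (49.6 and 40.9) lay between the 1.4-fold lines. The membrane bile acid receptor Gpbar1 and the Fgf15 co-receptor Klb had no row in the table.

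Among 9 other genes reported as FXR targets in intestine or liver, 3 were higher, 3 were lower and 3 were within 1.4-fold. Their median log2 fold was 0.15. The higher genes were Nos2, the inducible nitric oxide synthase, at 115 in the knockout and 33.3 in the control, the carbonic anhydrase Car12 at 9.84 in the knockout and 4.10 in the control, and the cytokine Il18 at 73.4 in the knockout and 36.8 in the control. The lower genes were Cyp3a11, given above, Ang (10.4 in the knockout and 17.6 in the control) and the fatty acid transporter Slc27a4 (184 and 258).

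The nuclear receptors and intestinal transcription factors that work with FXR or set regional identity were lower or within 1.4-fold. Of 21, none was higher, 8 were lower and 13 were within 1.4-fold. The count of lower genes became 6 when the knockout was scaled to the epithelial markers. It was 7 with scaling to equal sums without mitochondrial and the 20 most abundant genes, and 2 at 2-fold. The median log2 fold of the 21 genes was -0.32. Rxra, whose product pairs with FXR on DNA, was 27.5 in the knockout and 43.7 in the control. Nr5a2, whose product LRH-1 is a target of SHP repression and in mice drives Slc10a2, was 5.69 in the knockout and 15.1 in the control. Vdr, the vitamin D receptor, which also binds the secondary bile acid lithocholic acid, was 63.5 in the knockout and 171 in the control, and the glucocorticoid receptor gene Nr3c1 was 13.7 in the knockout and 27.0 in the control. Gata4, which marks the proximal small intestine and in mice holds down ileal genes there, was 43.8 in the knockout and 63.3 in the control. Its relative Gata6 was 19.8 in the knockout and 23.7 in the control. Hnf4a (246 in the knockout and 244 in the control) and the xenobiotic receptor gene Nr1i2 (38.3 and 31.4) lay between.

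Around cubam, the other B12 genes were mixed. Of 12 carriage genes and cubilin partners, 2 were higher, 4 were lower and 6 were within 1.4-fold. Their median log2 fold was -0.28. The lower ones were Tcn2, the plasma B12 carrier, at 117 in the knockout and 199 in the control, its receptor gene Cd320 at 5.40 in the knockout and 9.32 in the control, the receptor chaperone Lrpap1 at 8.57 in the knockout and 15.3 in the control, and the scaffold gene Pdzk1 at 54.3 in the knockout and 90.9 in the control. Abcc1, which exports free B12, was among the higher ones, at 6.13 in the knockout and 2.94 in the control. Lrp2, the megalin partner of cubilin in kidney, and the adaptor Dab2 had no row in the table. Of 13 genes for B12 processing and use, 3 were higher, 3 were lower and 7 were within 1.4-fold, and their median was -0.24. Pcca, a propionyl-CoA carboxylase subunit upstream of the B12-dependent mutase, was 6.78 in the knockout and 23.4 in the control, and the mutase gene Mut itself was 7.66 in the knockout and 9.42 in the control. Pccb, the other carboxylase subunit gene, was 47.7 in the knockout and 76.4 in the control, and the epimerase gene Mcee was 17.6 in the knockout and 30.8 in the control. The lysosomal protease gene Ctsl was 16.1 in the knockout and 6.26 in the control. Methionine synthase, Mtr, was 2.45 in the knockout and 1.22 in the control, and its reductase Mtrr was 3.09 in the knockout and 1.66 in the control.

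**Figure D3:**
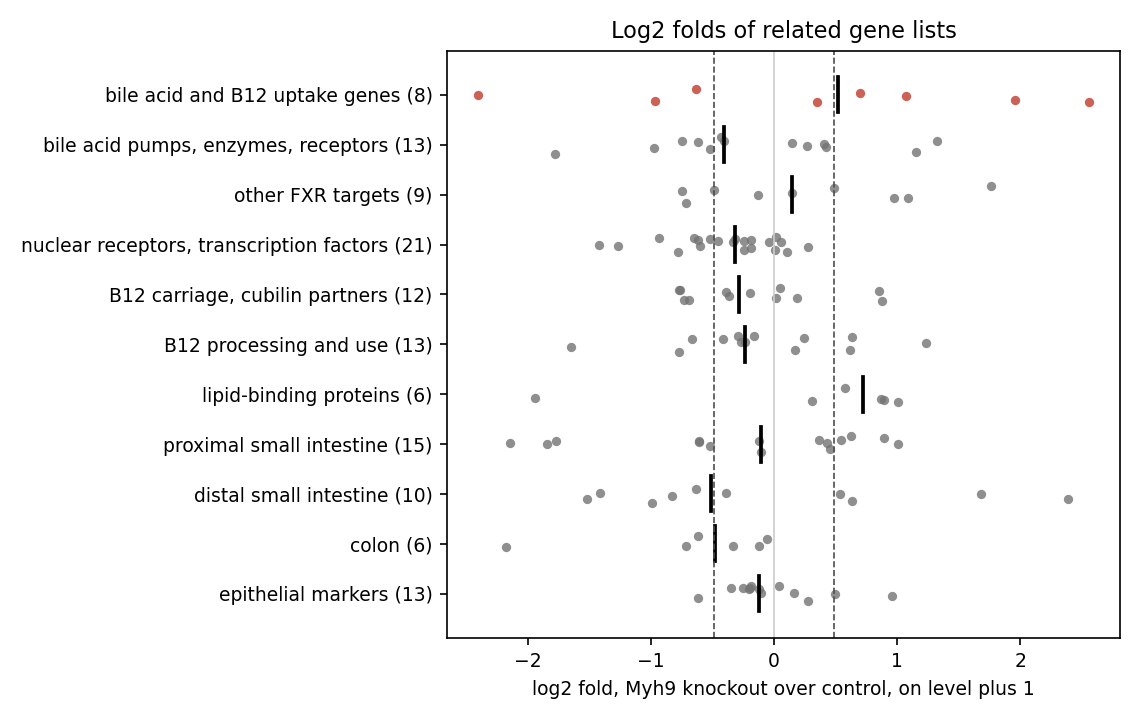
Log2 fold of the Myh9 knockout over the control for each included gene of the bile acid and B12 uptake set (red) and of related lists (grey), with the number of genes in brackets, vertical bars at the medians and dashed lines at 1.4-fold. The uptake genes run from -2.40 for Cubn to 2.56 for Fabp6, and no gene of the nuclear receptor list lies above the upper dashed line.

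Fabp6 belongs to the family of small intracellular lipid-binding proteins, of which Fabp1 and Fabp2 are the abundant intestinal fatty acid carriers. Of 6 other included family genes, 4 were higher, 1 of them only through the knockout, and 1 was lower, and the median log2 fold was 0.72. The level of Fabp1 was 6049 in the knockout and 3018 in the control, a log2 fold of 1.00, which lay 1.56 below that of Fabp6. Fabp2 was 3933 in the knockout and 3174 in the control, a log2 fold of 0.31, and lay 2.25 below. The retinol-binding genes split, with Rbp2 at 5321 in the knockout and 2862 in the control and Rbp7 at 8.91 in the knockout and 36.9 in the control.

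Markers of intestinal region went both ways. Of 10 distal genes outside the uptake set, 4 were higher, 5 were lower and 1 was within 1.4-fold. Their median log2 fold was -0.51. The mucin gene Muc3 was 324 in the knockout and 61.0 in the control, and the glucagon gene Gcg was 38.4 in the knockout and 24.3 in the control. The goblet product Retnlb was 2.21 in the knockout and listed at 0 in the control, so it entered only through the knockout, which fixed its direction. Against these, Osr2 was 12.9 in the knockout and 38.8 in the control, the neurotensin gene Nts was 9.01 in the knockout and 25.6 in the control, and Enpp7, the alkaline sphingomyelinase of the brush border, was 162 in the knockout and 324 in the control. Of 15 proximal genes, 4 were higher, 6 were lower and 5 were within 1.4-fold, and their median was -0.11. That median became 0.02, with 7 higher and 5 lower, when the knockout was scaled to the epithelial markers. Among them the lactase gene Lct was 81.0 in the knockout and 279 in the control, Gkn3 was 0.881 in the knockout and 7.31 in the control and the iron exporter gene Slc40a1 was 0.437 in the knockout and 4.14 in the control, the last 2 entering only through the control, which fixed their direction, whereas Fabp1, Rbp2 and the cholecystokinin gene Cck (71.1 in the knockout and 45.8 in the control) were higher. Of 6 colon genes, none was higher and 3 were lower, namely Mettl7b, given above, B4galnt2 (121 in the knockout and 199 in the control) and Car4 (113 and 173), and the defining colon genes Car1, Aqp8 and Hoxb13 had no row in the table. The share of ileal tissue in each preparation is not given, and its part in the levels of the uptake genes was not tested.

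Other cell types in the preparation differed between the libraries as well. The 11 included lymphocyte markers summed to 521 in the knockout and 1059 in the control, with 9 lower and 1 higher. The higher one was Jchain, at 32.6 in the knockout and 9.88 in the control. The 7 myeloid markers summed to 35.7 in the knockout and 40.4 in the control (3 higher, of which 2 were below 1 in the control; 3 lower), the 7 stromal markers to 29.8 in the knockout and 26.6 in the control (4 higher, of which 3 were below 1 in the control and so entered only through the knockout; none lower), and the 3 red blood cell markers to 16.4 in the knockout and 7.50 in the control (2 higher, none lower). Of 10 housekeeping genes, 1 was higher and 1 was lower, and their median log2 fold was 0.29. S100a9 was the only marker of these cell types listed at 0, in the control. Their part in the levels of the uptake genes was not tested. The 13 epithelial markers summed to 11379 in the knockout and 11904 in the control, with a median log2 fold of -0.12. When the knockout was scaled to bring that median to 0, the log2 folds were 2.68 for Fabp6, 0.82 for Slc51b, 0.47 for Nr1h4, -0.51 for Slc51a, -0.85 for Amn and -2.31 for Cubn, so each kept its call.

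**Figure D4:**
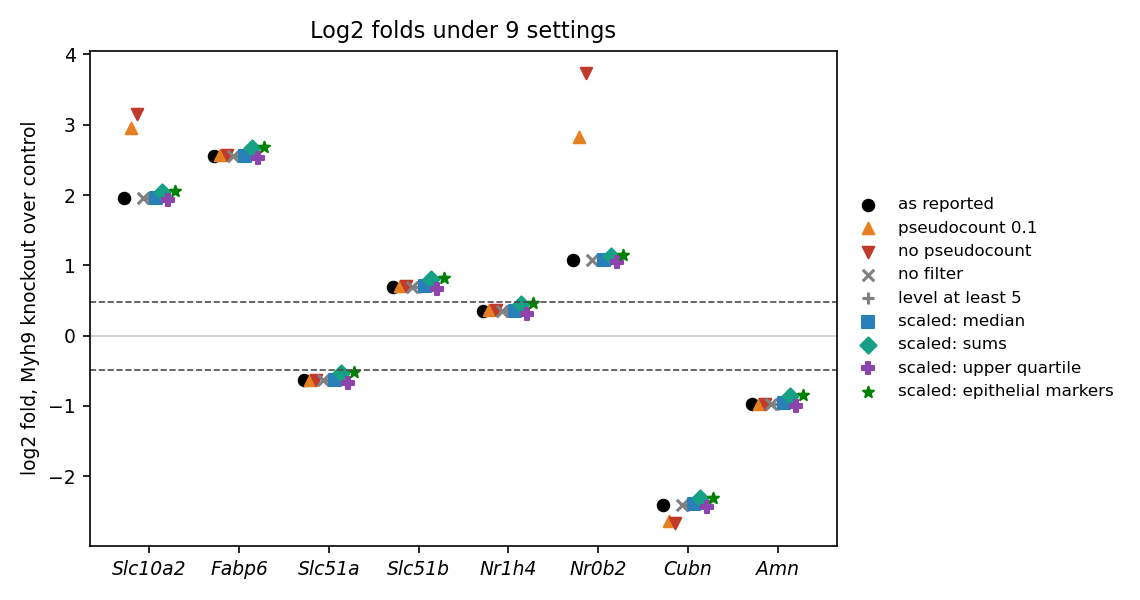
Log2 fold of the Myh9 knockout over the control for each uptake gene under 9 settings of pseudocount, filter and library scaling, with dashed lines at 1.4-fold. Slc10a2 and Nr0b2 move upward with a smaller pseudocount, and no gene crosses a dashed line.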

How the data were processed

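RNA of small intestinal epithelium from 1 Myh9-/- and 1 wild type mouse was sequenced on an Illumina HiSeq instrument, per the labels' protocols. The submitters' processing notes name HISAT2, StringTie and mm10 but give neither versions nor roles. The deposited table gives 1 signal value per gene and sample, whose unit is not stated. No deposited value was below 1. More than 6 significant digits stood in 1218 knockout and 1118 control values, and in none after 1 was subtracted, so the values were read as levels to which the authors had added 1. The authors' deposited fold matched the ratio of the values to within a relative difference of 1.22e-07. The levels summed to 634492 in the knockout and 671114 in the control, which are not read totals, and depth is unknown. Columns were assigned to samples through the animal number in table and title.

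Levels, folds on level plus a pseudocount of 1 and calls at 1.4-fold, for genes that reached a level of 1 in at least 1 library, were computed with Python 3.11.15 and pandas 2.3.3. The fold and call steps were tested on simulated folds without noise, which checks their arithmetic only and not the error of these data. With 1 sample per group no test was run. The 9 members and 15 related lists were chosen with earlier results of these data known. Named were all members, Myh9, preset functional partners, up to 3 genes past 1.4-fold at each end of a list, and the 3 genes nearest in level to Fabp6 and to Cubn; Epcam, Mut, Cd320, S100a9, the genes overlapping Slc51a and Slc51b and the marker genes said to have no row were named after their values were seen. Apoc2, 1 of 8 names that stood on more than 1 row, was left out of the lists. Some list members are not reported here by name. Positions came from GENCODE M21 on GRCm38, the assembly that mm10 denotes, and promoters from RefSeq on GRCm38.p6, where 8 members had an entry. The alternatives were 2 other pseudocounts, 2 other filters, a 2-fold threshold and 4 library scalings.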

Additional observations from a re-analysis of the deposited data

How the results depend on the processing

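No uptake gene changed direction under any of the 9 alternatives, and each kept its side of the 1.4-fold lines wherever it was included. By construction, a change of pseudocount, filter or threshold cannot alter a direction. The 4 scalings multiplied the knockout by 0.975 to 1.09, too little to reverse any of these folds. The unchanged directions are therefore no measure of error. Log2 folds ran from 2.52 to 2.68 for Fabp6, from 0.66 to 0.82 for Slc51b, from 0.31 to 0.47 for Nr1h4, from -0.67 to -0.51 for Slc51a, from -1.003 to -0.85 for Amn and from -2.67 to -2.31 for Cubn. The genes below 1 in the control depended on the pseudocount, with Slc10a2 between 1.92 and 3.16 and Nr0b2 between 1.05 and 3.73. Nr0b2 was not included at a level of at least 5. At 2-fold, 3 uptake genes were higher (Fabp6, Slc10a2, Nr0b2) and 1 was lower (Cubn), beside 546 higher and 520 lower among all 12152 included genes. Of the 3 higher ones, Slc10a2 and Nr0b2 entered only through the knockout. At a level of at least 5, 1284 genes were lower, against 1985 at a level of at least 1, since fewer genes enter by construction. Scaling to the epithelial markers multiplied the knockout by 1.09, moved the median log2 fold of all genes to 0.10 and brought the higher genes to 62.4% of those called, and scaling to equal sums without mitochondrial and the 20 most abundant genes brought them to 61.1%, against 49.4% as reported. Under each of these scalings 4 of the bile acid pumps, enzymes and receptors were higher and 4 were lower, and the median of the proximal list turned positive, at 0.02 and 0.0038, as it did without a filter, at 0.05. The myeloid median, 0.45 as reported, was -0.49 at a level of at least 5. No paired analysis was possible because each group held 1 sample. Without replicates or read counts, no error can be put on any level, least of all on those of Slc10a2 and Nr0b2, which were below 1 in the control.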
